A study of Homo sapiens with 10 samples.

Results

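Mixture 2 was compared with mixture 1, a pair of in vitro pools of the human leukaemia and lymphoma lines HL60, K562, SUDHL4 and THP1. They are 2 of the 10 bulk RNA libraries of the series. The other libraries are 4 further pools and 1 pure library of each line, and the 4 pure libraries served here as the reference for every gene. All cells are labelled wild type (WT), untreated and collected at day 0, and each group is 1 library, so no difference below has a replicate check and no p-value is given. The labels do not give the mixing ratios of the pools. They name a stranded total RNA kit and a stranded mRNA kit without saying which library was made with which. Mixture 1 held 36607612 reads and mixture 2 held 26953000 reads. Levels are normalised CPM, the usual sequencing unit of expression after the authors' rescaling between libraries. A gene was tested when it reached 5 normalised CPM in either mixture, which 10403 of 20591 genes did. The difference of a gene is log2(mixture 2 + 1) minus log2(mixture 1 + 1), and a gene is called changed, higher or lower, at a difference of at least 1 log2 unit in size.

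The 4 lines stand for 4 branches of blood. HL60 comes from an acute promyelocytic type of leukaemia and makes the azurophil granule proteins of neutrophil precursors. K562 comes from a blast crisis of chronic myeloid leukaemia and makes embryonic and fetal globins. SUDHL4 is a diffuse large B cell lymphoma line of germinal centre type, and THP1 is a monocytic leukaemia line. In a pool of RNA, the level of a gene is the average of its levels in the sources, weighted by how much RNA each source gave. A gene used by 1 line therefore follows that line, while a gene used equally by all lines cannot move, whatever the proportions. Fewer cells of a line and less RNA per cell cannot be told apart in bulk libraries.

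The promoters of 3 genes are shown because these genes were highest in the lines whose fitted amounts differed most between the pools. CEBPE, a transcription factor of late granulocyte maturation, and CLC, the Charcot-Leyden crystal protein galectin-10, were both highest in HL60. VPREB3, a B cell protein that associates with the pre-B cell receptor, was highest in SUDHL4. Each sequence runs from 250 bases before to 50 bases after the gene start and is taken from RefSeq (GRCh38.p14). Capitals mark GAGGAA or its reverse complement TTCCTC, a core of sites bound by PU.1, the myeloid and B cell ETS factor, and ATTTGCAT, the octamer bound by the OCT factors of B cells. All 3 genes lie on the minus strand, CEBPE at chr14:23119206-23119505, CLC at chr19:39737980-39738279 and VPREB3 at chr22:23754376-23754675.
CEBPE: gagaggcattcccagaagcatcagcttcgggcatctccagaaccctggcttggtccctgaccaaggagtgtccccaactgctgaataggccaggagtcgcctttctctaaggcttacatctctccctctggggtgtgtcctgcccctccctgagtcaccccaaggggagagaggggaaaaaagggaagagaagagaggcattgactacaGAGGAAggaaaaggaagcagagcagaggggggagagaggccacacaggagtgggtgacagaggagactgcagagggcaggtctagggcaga
CLC: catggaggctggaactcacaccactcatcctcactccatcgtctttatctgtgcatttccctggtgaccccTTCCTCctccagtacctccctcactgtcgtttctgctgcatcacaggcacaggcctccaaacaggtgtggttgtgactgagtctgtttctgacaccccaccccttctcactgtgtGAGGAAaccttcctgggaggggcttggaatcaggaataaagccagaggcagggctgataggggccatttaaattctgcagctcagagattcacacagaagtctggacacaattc
VPREB3: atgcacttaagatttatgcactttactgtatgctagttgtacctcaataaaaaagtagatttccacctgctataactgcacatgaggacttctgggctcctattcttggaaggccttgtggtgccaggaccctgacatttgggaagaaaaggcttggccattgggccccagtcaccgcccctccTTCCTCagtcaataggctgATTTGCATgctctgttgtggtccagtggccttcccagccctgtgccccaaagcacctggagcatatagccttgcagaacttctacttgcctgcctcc

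The GAGGAA core, searched on both strands, occurred in 4 of the 9 matched promoters of genes that were higher in mixture 2 and led by HL60 (44.4%), and in 29.4% of 143 matched promoters of genes that were lower and led by SUDHL4. It was present in 27.4% of 8197 promoters of tested genes. The octamer ATTTGCAT occurred in 6 of the 143 SUDHL4 promoters (4.20%) and 0 of the 9 HL60 promoters. It was in 1.27% of those of tested genes and in 1.80% of all 27305 promoters of the table. Of 2 other motifs searched, the TATA box TATAAA occurred in 12 of the 143 and 1 of the 9, against 5.10% of tested genes. The C/EBP palindrome TTGCGCAA occurred in 0 of both sets, against 0.232%. A promoter was matched for 9 of 17 HL60 genes and 143 of 207 SUDHL4 genes. A led gene is one whose log2(value + 1) in 1 pure line lay at least 2 above that in every other line. These matches describe the letters in the windows and were not tested.

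Most genes were at similar levels in both pools, and the genes that changed were mainly genes of the B cell line. Of the 10403 genes tested, 74 were higher in mixture 2 (0.711%) and 341 were lower (3.28%), so 3.99% were called changed. The median difference over all tested genes was -0.01 log2 units, and 78.9% of genes lay within 0.5 log2 units of 0. Differences of at least 2 log2 units were reached by 5 genes that were higher and 14 genes that were lower. Genes just inside the level of 5 were WARS2-AS1 and SAT2 at 5.01 in their higher mixture, and MRNIP and CNKSR2 at 4.98 lay just outside. SLAMF6 and ADAMTS3, whose differences were just past -1, were just inside the call, and SLC44A2 at -0.995 and TRIM32 at -0.999 were just outside.

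**Figure D1:**
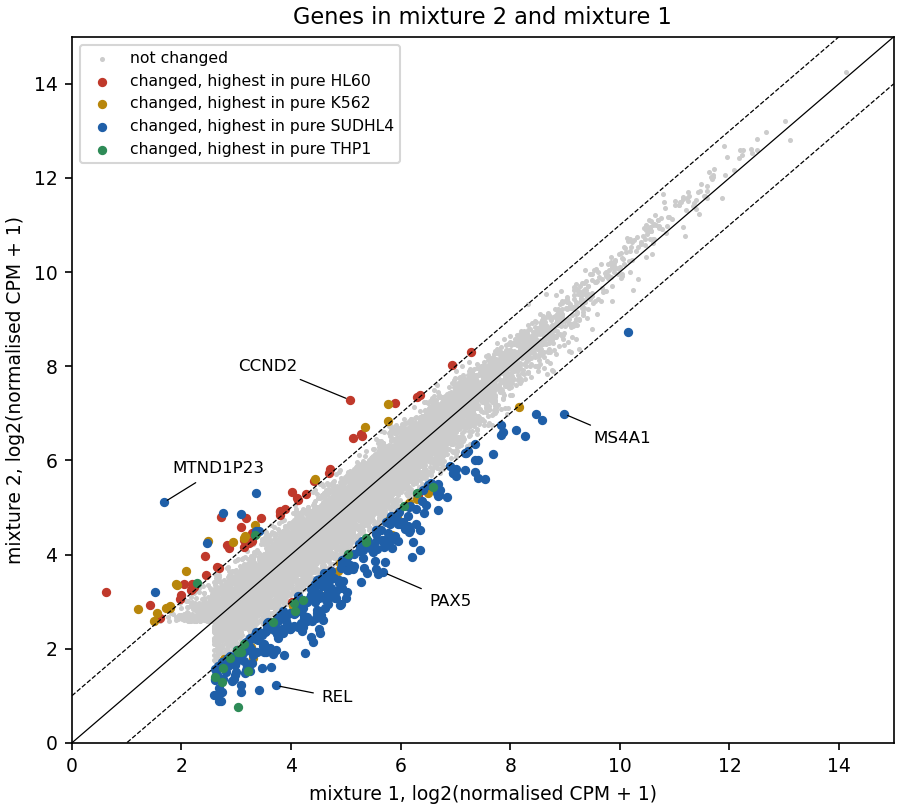
Each point is 1 of the 10403 tested genes, with its log2(normalised CPM + 1) in mixture 1 on the x axis and in mixture 2 on the y axis. Colours give the pure line in which a changed gene was highest, the solid line is equality and the dashed lines are differences of 1 log2 unit; most coloured points below the diagonal are SUDHL4 genes.

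The pure line in which a gene was highest separated the genes by direction. Among the 341 lower genes, 295 were highest in SUDHL4 (86.5%), 21 in THP1, 20 in K562 and 5 in HL60. Among the 74 higher genes, 45 were highest in HL60 (60.8%), 19 in K562, 8 in SUDHL4 and 2 in THP1. Over all genes tested, SUDHL4 was highest for 24.3% and HL60 for 27.1%. A lead over the second line of at least 1 log2 unit was held by 262 of the 295 lower SUDHL4 genes but by 24 of the 45 higher HL60 genes, so many of the latter were not far above another line.

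**Figure D2:**
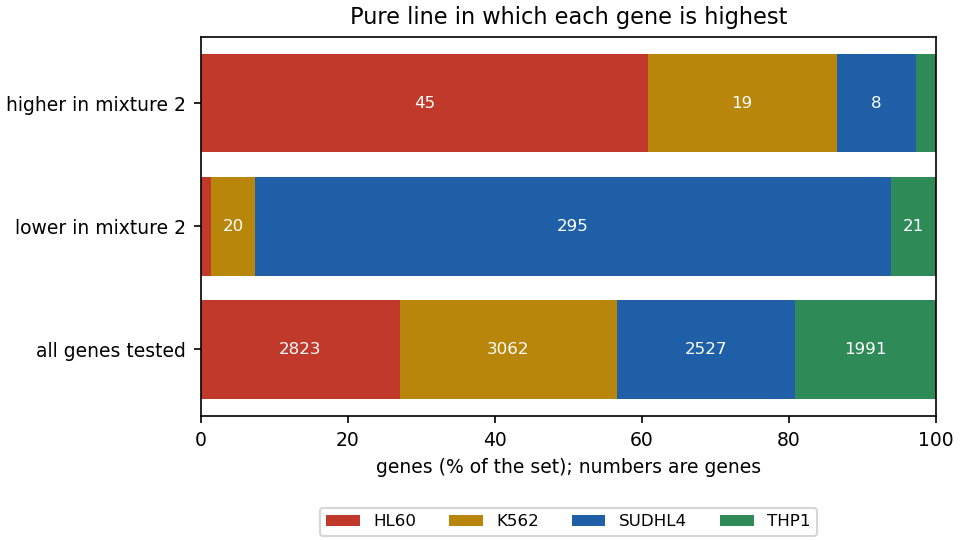
Bars give the percentage of genes that were highest in each pure line, for the 74 genes higher in mixture 2, the 341 genes lower and all 10403 genes tested, with the number of genes in each segment. SUDHL4 takes 86.5% of the lower genes and HL60 60.8% of the higher ones.

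The fitted composition of the pools differed mainly in the shares of HL60 and SUDHL4. Non-negative least squares on 100 signature genes per line gave mixture 1 26.3% HL60, 22.4% K562, 22% SUDHL4 and 29.3% THP1 RNA. Mixture 2 was given 49.5% HL60, 19.2% K562, 6.48% SUDHL4 and 24.8% THP1. The shares of mixture 1 were thus between 22% and 29.3%, and HL60 was the largest share of mixture 2. Before rescaling to a sum of 100%, the HL60 coefficient was 1.84 times as large in mixture 2 as in mixture 1, and the SUDHL4 coefficient 0.288 times as large. The coefficients of K562 and THP1 were 0.836 and 0.825 times as large. With these values no gene could be predicted to rise by 1 log2 unit, since the highest predicted difference was 0.88, while the lowest was -1.79. A fall of at least 1 was predicted for 215 genes, and 191 of them were lower (88.8%). Of the 168 genes with a predicted difference of 0.5 or more, 162 had a positive difference and 22 were called higher. The signature genes used for the fit were not left out of these counts. The predictions are thus not independent of the values they are set against. In this fit the coefficient ratio crossed the threshold of the call for SUDHL4 and not for HL60. Its part in the unequal counts of 341 lower and 74 higher genes was not tested. With a composition taken from genes detected in 1 line alone, a rise of at least 1 was predicted for 36 genes.

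Genes detected in 1 pure line alone gave a reading that needs no regression. They had 5 or more normalised CPM in their line and at most 3 reads in all over the other 3 pure libraries. For SUDHL4, 98 such genes stood at 21.3% of their summed pure level in mixture 1 and at 6.26% in mixture 2, a ratio of 0.294 (95% exact counting interval 0.289 to 0.299). For THP1, 147 genes went from 27.9% to 22.3%, a ratio of 0.800 (0.787 to 0.812). For K562, 176 genes stood at 23% and 23.1%, a ratio of 1.00 (0.990 to 1.01), where the fitted coefficients gave 0.836. For HL60 the 10 genes of this kind went from 26.5% to 59.4%, a ratio of 2.24 (2.14 to 2.34), above the fitted 1.84. Sums are weighted to the genes with most reads, and the median gene stood at 20.1% and 17.6% for K562, 25.8% and 42.9% for HL60, 21.2% and 6.4% for SUDHL4, and 27.8% and 22.2% for THP1. These intervals, and all intervals below, cover counting error only.

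The HL60 genes were not alike in this ratio. CLC had 15.2 normalised CPM in mixture 1, 39.0 in mixture 2 and 56.9 in pure HL60, a ratio of 2.57 (2.31 to 2.85). IGLL1, a surrogate light chain gene, had 37.8, 92.7 and 140.1, a ratio of 2.46 (2.30 to 2.63). PRG2 and EPX, which encode eosinophil granule proteins, had ratios of 2.47 and 2.22. S1PR4, a sphingosine phosphate receptor, had a ratio of 2.21 (1.99 to 2.45). In contrast ZNF667 had 5.31 normalised CPM in mixture 1 and 4.61 in mixture 2, a ratio of 0.870 (0.684 to 1.10), and SLC28A3, a nucleoside transporter, had a ratio of 0.948 (0.614 to 1.44). The longest annotated transcripts of CLC, IGLL1 and PRG2 are 635, 901 and 1424 bases, and those of ZNF667 and SLC28A3 are 5250 and 4887 bases. Those of S1PR4 and EPX are 1565 and 2708 bases. PTX4, at 1516 bases, had a ratio of 2.28. ZNF667-AS1, at 1521 bases, had a ratio of 1.31 (0.975 to 1.75), so not every short transcript had a high ratio. COL17A1, at 5689 bases, had a ratio of 1.35 (0.856 to 2.13).

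Genes of the promyelocyte and granule list had mostly positive differences, but few passed the threshold. Of 19 tested members, 17 had a positive difference, 4 were higher and 1 was lower, with a median of 0.44 log2 units against -0.01 over all tested genes. CEBPE had 58.8 normalised CPM in mixture 1 and 147 in mixture 2, against 216 in pure HL60 and at most 6.58 in the other lines, a ratio of 2.5 (2.37 to 2.64). CST7, the protease inhibitor cystatin F, had 77.7 and 162, a ratio of 2.08 (1.99 to 2.19). EPX had 5.47 and 12.1. MPO, the peroxidase of azurophil granules, had 3837 and 6511 normalised CPM, against 15646 in pure HL60, and its ratio of 1.70 (1.69 to 1.71) left it below the call. The serine protease genes PRTN3, ELANE and AZU1 had ratios of 1.61, 1.30 and 1.23, and all 3 were higher in pure THP1 than in pure HL60. The lower member was CAMP, the cathelicidin gene, which was highest in SUDHL4 among these lines and had 5.99 and 2.16 normalised CPM. Of the 9 marker genes set for HL60, 5 were highest in that line, while PRTN3, ELANE, AZU1 and MS4A3 were highest in THP1.

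Over all 94 genes led by HL60, 92 had a positive difference, 17 were higher and none was lower, with a median ratio of 1.70. The 10th and 90th percentiles of the ratio were 1.32 and 2.28. In the 22 genes with a lead of at least 4 log2 units the median ratio was 2.03, and 10 were higher. Most genes led by HL60 were therefore higher in mixture 2 by less than the call requires. HLA-C, a class I antigen presentation gene that was highest in HL60, had 122 and 258 normalised CPM, a ratio of 2.12 (2.04 to 2.2), and was the only 1 of 11 tested members of the class I list that was called. EBP, a sterol isomerase of cholesterol synthesis, had 155 and 314, and was the only 1 of 18 members of the cholesterol list that was called. MYC, chosen after its values were seen, had 457 and 732 normalised CPM, with 1292 in pure HL60, and a difference of 0.68.

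B cell genes were lower almost without exception. Of 24 tested members of the B cell and germinal centre list, 22 were lower and none was higher, with a median difference of -1.58 against a predicted -1.70. MS4A1, which encodes the surface antigen CD20, had 503 normalised CPM in mixture 1 and 126 in mixture 2, with 2669 in pure SUDHL4, and was reduced 3.99-fold. PAX5, the transcription factor of B cell identity, had 50.5 and 11.3, reduced 4.47-fold. MME, the germinal centre marker CD10, had 72.8 and 14.4, reduced 5.04-fold. BLK, a B cell kinase of the SRC family, had 73.4 and 18.4, reduced 4.00-fold. VPREB3 had 50.6 and 18 normalised CPM, a ratio of 0.356 (0.320 to 0.394), and SERPINA9, a germinal centre serpin chosen after its values were seen, had 44.3 and 15.5. The exceptions were MZB1, a plasma cell chaperone cofactor, at 53.3 and 56.0, and CD37 at -0.50. MZB1 was also present in pure HL60, at 63.6 against 140 in SUDHL4.

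Class II antigen presentation genes were lower in 9 of 12 tested members, all 12 had a negative difference, and the median was -1.42 log2 units. CD74, the invariant chain, had 1136 normalised CPM in mixture 1 and 420 in mixture 2, a ratio of 0.370 (0.362 to 0.378). HLA-DPA1 had 114 and 36.2, and HLA-DRA had 205 and 69.8. Reads of HLA genes can be shared among near-identical family members, so single values are uncertain. All 274 genes led by SUDHL4 had a negative difference and 207 were lower, with a median ratio of 0.364. Of the 123 with a lead of at least 4, 119 were lower, with a median ratio of 0.299.

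Members of other lists that were lower were also SUDHL4 genes in these libraries. LCK, a kinase best known from T cells, had 61.1 and 18.6 normalised CPM, with 252 in pure SUDHL4. DCN, a proteoglycan gene of stromal cells, had 13.8 and 5.17, with 69.7 in SUDHL4. CD86 and LILRB1, set in the monocyte list, had 28.2 and 10.0, and 6.97 and 1.84, and both were highest in SUDHL4. OAS2, of the interferon list, had 8.74 and 2.24, and BTG2, of the immediate-early list, had 53.2 and 21.1. Thus 1 of 3 tested T and NK cell genes and 1 of 5 tested stromal and epithelial genes were lower, and none was higher, against 3.28% lower and 0.711% higher over all genes tested.

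Genes of K562 and THP1 moved little. No member of the erythroid and megakaryocyte list was called, and the median over its 21 tested members was 0.02 log2 units against a predicted -0.25, but between -0.04 and -0.07 with the 3 other scalings tried. HBE1, the embryonic epsilon globin gene, had 572 and 689 normalised CPM, and GATA1, the erythroid transcription factor gene, 59.3 and 58.3. HBG1 had 417 and 363 and HBG2 had 410 and 560, so the near-identical fetal globin genes went in opposite directions, and the split of reads between them is uncertain. In the monocyte list the median of 18 tested members was -0.18. LYZ, the lysozyme gene, had 344 and 356 normalised CPM, and CSF1R, the receptor of macrophage colony-stimulating factor, 66.5 and 45.3. The 309 genes led by K562 had a median ratio of 0.889, with 5 lower and 1 higher, and the 346 led by THP1 had a median ratio of 0.857, with 6 lower.

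The lower genes led by K562 at 20 or more normalised CPM were RELN, MAP1A and TET1, which have long transcripts. RELN, which encodes the extracellular protein reelin, had 27.8 normalised CPM in mixture 1 and 11.5 in mixture 2, against 150 in pure K562, a ratio of 0.412 (0.360 to 0.469). MAP1A, a microtubule-associated protein gene, had 54.0 and 25.7, against 243 in pure K562. TET1, a 5-methylcytosine oxidase gene, had 22.9 and 10.1, against 91.0 in pure K562. Their longest transcripts have 11571, 10553 and 9288 bases, while the median over tested genes is 3653. The fitted shares gave these 3 genes predicted differences of -0.25, -0.29 and -0.09, against observed differences of -1.21, -1.04 and -1.11.

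Genes shared by a pair of lines took intermediate values. A pair gene lay at least 2 log2 units higher in both lines than in the remaining lines. The 55 genes of K562 and SUDHL4 had a median difference of -0.79 with 16 lower, and the 108 genes of SUDHL4 and THP1 had -0.77 with 33 lower and 1 higher. The 303 genes of HL60 and THP1 had a median of 0.30 with 4 higher, and the 25 genes of HL60 and K562 had 0.38 with 2 higher. The 40 genes of HL60 and SUDHL4, the lines whose coefficients moved in opposite directions, had a median of -0.20 with 5 lower, against a predicted -0.04. The 177 genes of K562 and THP1 had -0.19 against a predicted -0.23.

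Some changed genes could not be given by any proportions of the 4 pure profiles. A changed gene was put in this group when its difference was larger than its span over the pure lines, or when its value in either mixture lay outside their range by at least 0.5 log2 units. This held for 50 of the 415 changed genes, 23 higher and 27 lower. Over all 10403 genes tested, 161 had a mixture value outside the range by at least 0.5, and 114 of these were not called changed. A weaker rule, a departure of at least 1 log2 unit from the difference predicted by the fitted shares, held for 67 genes, 38 higher and 29 lower, while 80 of all tested genes departed by as much. Both rules held for 39 genes and at least 1 of them for 78, with 39 in each direction. The remaining 337 changed genes comprised 302 lower genes, of which 278 were highest in SUDHL4, and 35 higher genes, of which 32 were highest in HL60. The 78 include 28 genes that lay inside the range and departed only from the fitted shares.

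**Figure D3:**
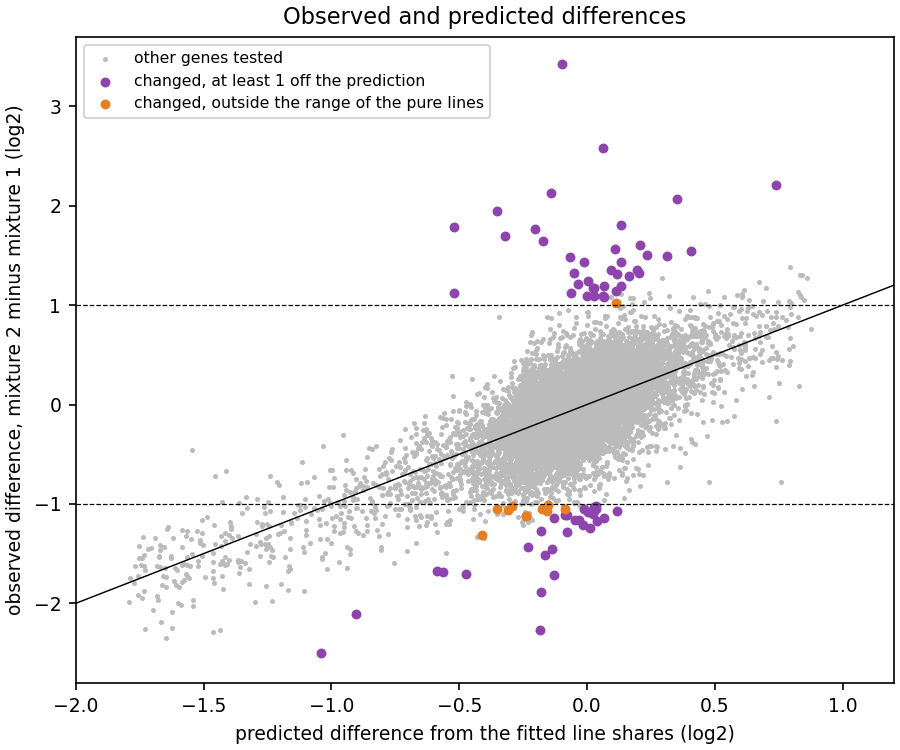
Each point is 1 tested gene, with the difference predicted by the fitted shares on the x axis and the observed difference on the y axis, both in log2 units. The solid line is equality, the dashed lines mark the call, and coloured points are the 78 changed genes that departed from the fitted shares by at least 1 or lay outside the range of the pure lines.

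The gene with the largest difference was MTND1P23, a nuclear pseudogene copy of the mitochondrial ND1 gene. It had 2.2 normalised CPM in mixture 1 and 33.4 in mixture 2, and lay between 0.522 and 3.32 in the pure lines and between 1.55 and 4.39 in mixtures 3 to 6. Its ratio was 15.2 (12.2 to 19.5), from 80 and 844 reads. It is near-identical to the mitochondrial gene, so the origin of its reads is uncertain, and the other mitochondrial copies did not move with it. MTND2P28 had 662 and 657 normalised CPM, MTATP6P1 had 6.61 and 7.86, and MTCO1P12 had 154 and 106. MTX1P1, a pseudogene of the metaxin gene MTX1, had 0.532 and 8.18 normalised CPM, and of the other libraries only mixture 3, at 6.10, was above 1.

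CCND2, the gene of the G1 cyclin D2, was among the 5 genes that were higher by at least 2 log2 units. It had 32.6 normalised CPM in mixture 1 and 155 in mixture 2, while mixtures 3 to 6 had between 21 and 45.4. The pure lines had 147 in HL60, 30.6 in K562, 0.239 in SUDHL4 and 0.107 in THP1. Mixture 2 thus stood at 105% of pure HL60, and mixture 1 at 22.2%. The ratio was 4.75 (4.45 to 5.07), and the fitted shares predicted 43.5 for mixture 1 and 73.4 for mixture 2.

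Short structural RNAs without a poly(A) tail were higher in mixture 2. RN7SK, the 7SK RNA that holds the elongation factor P-TEFb inactive, had 9.29 normalised CPM in mixture 1 and 38.6 in mixture 2, a ratio of 4.16 (3.67 to 4.72). RMRP, the RNA of the RNase MRP complex, had 1.87 and 8.26, a ratio of 4.42 (3.36 to 5.93). These were the only 2 of 13 measured members of the small structural RNA list to reach 5, and both were higher. SNORD3A, the U3 small nucleolar RNA, chosen after its values were seen, had 4.51 and 18. All 3 were highest among the pure lines in SUDHL4, the line whose share was smaller in mixture 2, and the fitted shares predicted differences of -0.35, -0.32 and -0.52. Mixture 2 was not the highest pool for any of the 3 RNAs, since mixture 3 had 122, 31.1 and 29.7 and mixture 5 had 41.0, 11.3 and 25.9. SNHG16, the host gene of several small nucleolar RNAs, had 53.5 and 147 normalised CPM, above its highest pure value of 69.0 in K562. The labels do not tie the kits to the libraries, and the part of the kit in these values was not tested.

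Examples of the 23 higher genes outside the range are PPP1CB, VMA21 and SNX27. PPP1CB, a catalytic subunit of protein phosphatase 1, had 40.0 and 104, VMA21, an assembly factor of the vacuolar proton pump, 34.1 and 88.4, and SNX27, a sorting nexin of endosomes, 8.01 and 26.4. These 3 genes and SNHG16 were chosen after their values were seen. In mixtures 4 to 6 they had between 16.6 and 18.9 of SNX27, 50.2 and 67.9 of VMA21, and 75 and 94.6 of PPP1CB, so mixture 1 lay below these pools and mixture 2 above them. Mixture 3 lay near mixture 1, with 8.83 of SNX27, 29.4 of VMA21 and 50.8 of PPP1CB. Of the 39 higher genes that met either rule, 15 (38.5%) carried no symbol in the deposited table, against 2.94% of tested genes. ENSG00000258486 and ENSG00000263731 were the highest of these by difference, at 2.13 and 2.07 log2 units.

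**Figure D4:**
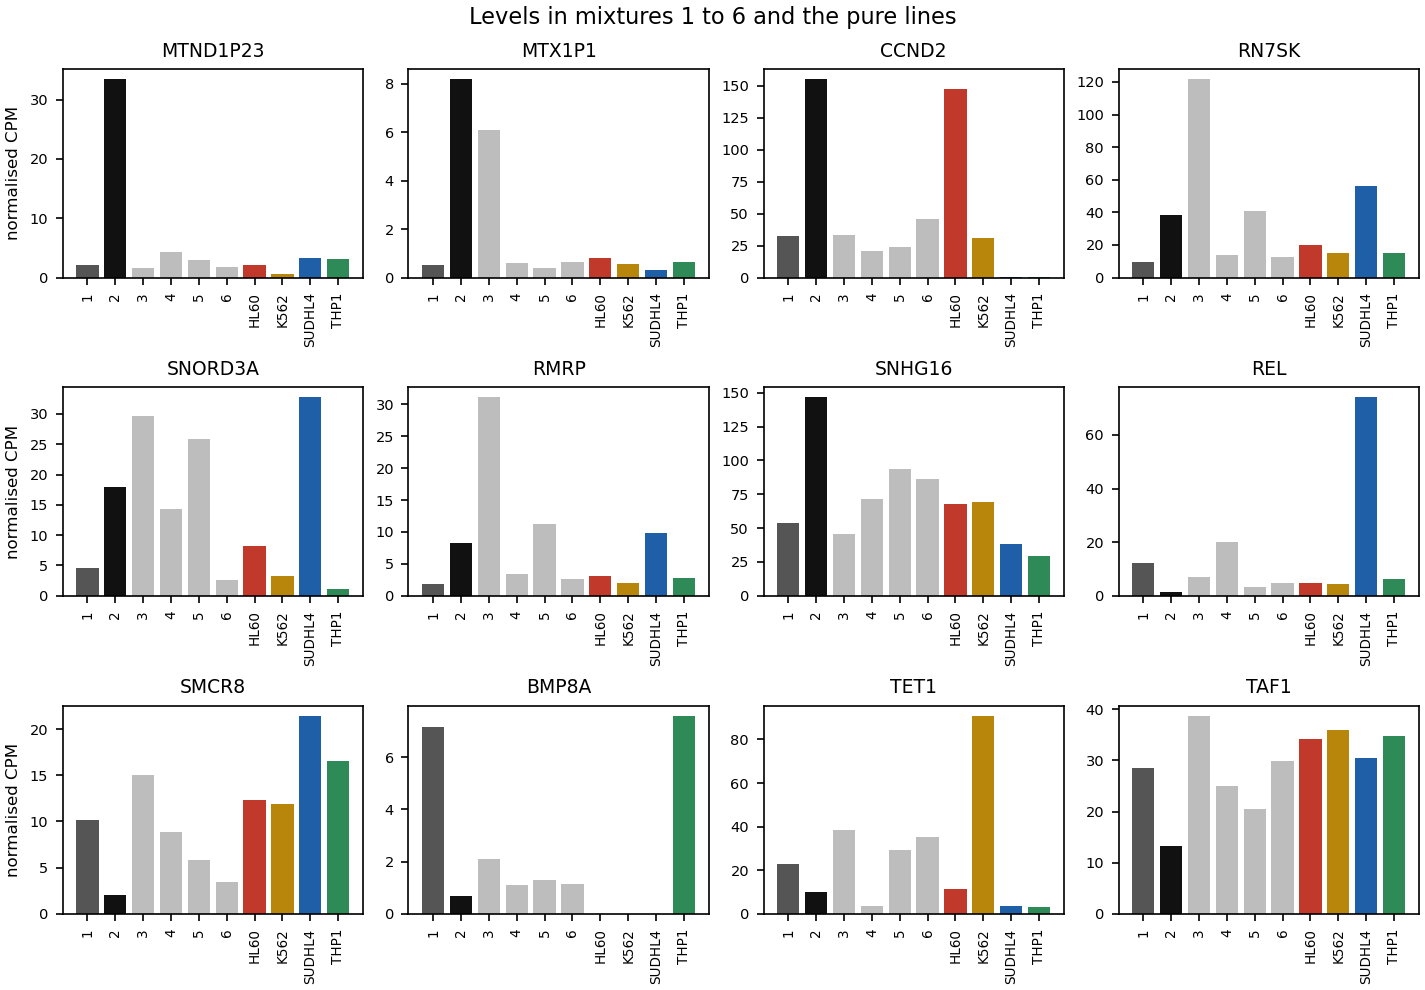
Bars give normalised CPM on a linear axis from 0 for 12 genes in mixtures 1 to 6 and the 4 pure lines, 1 library per bar. MTND1P23 is high in mixture 2 alone, and CCND2 reaches its pure HL60 level there. RN7SK, SNORD3A and RMRP are higher still in mixtures 3 and 5. SMCR8 and TAF1 lie below every pure line in all mixtures but mixture 3.

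REL was the only gene lower by at least 2 log2 units that also lay outside the range of the pure lines. REL encodes c-Rel, an NF-kappaB subunit of lymphoid cells. It had 12.2 normalised CPM in mixture 1 and 1.33 in mixture 2, from 446 and 33 reads, and no pure line was below 4.50. It was reduced 9.18-fold, against a predicted difference of -1.04. SMCR8, an autophagy gene whose pure values ran from 11.9 to 21.5, had 10.1 and 2.00 normalised CPM. TAF1, a subunit of the general factor TFIID, had 28.5 and 13.2, with pure values between 30.5 and 36.0. PRR11, a cell cycle gene, had 60.5 and 24.2, with pure values between 59.1 and 98.1. BMP8A had 7.16 and 0.693 normalised CPM, but here mixture 1 stood apart, at 94.3% of pure THP1. BMP8A has a near-identical neighbour, BMP8B, which had 196 and 142, and the split of reads between them is uncertain. PCDHGC3, at 19.5 and 3.78, shares exons with the protocadherin gamma cluster and is uncertain for the same reason.

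Several of the lower genes outside a composition encode very large proteins. The histone methyltransferase genes KMT2D and NSD1 had 79.1 and 37.7, and 143 and 70.0 normalised CPM. The ubiquitin ligase genes HERC1 and HERC2 had 70.5 and 33.1, and 77.3 and 35.2, and the myosin gene MYO18A had 95.8 and 42.4. These 5 genes were chosen after their values were seen. In each, mixture 2 lay below all 4 pure lines. Mixture 2 was not alone in this, since KMT2D had 57, 40.1 and 53.4 in mixtures 4 to 6 against a lowest pure value of 69.5, and HERC2 had 51.5, 53.4 and 61.4 against 71.0. In mixture 3 these 2 genes had 86.5 and 82.5, inside the range of the pure lines. HERC1 had 60.8, 51.8 and 50.4 in mixtures 4 to 6 against a lowest pure value of 63.7. NSD1 was below the pure lines in mixtures 5 and 6 but not in mixture 4, at 142 against 122. MYO18A was below them in mixtures 4 and 5 but not in mixture 6, at 75.9 against 69.8. Over the 39 lower genes that met either rule, the median departure from the fitted shares was -1.17 log2 units in mixture 2 and -0.13 in mixture 1. It was -0.45, -0.74 and -0.57 in mixtures 4 to 6, and 0.16 in mixture 3. The 39 genes were chosen by their values in mixtures 1 and 2, so the departures of these 2 mixtures are not independent of the choice. The longest annotated transcript had a median of 7176 bases over the 37 of these 39 lower genes with a length, against 3653 over tested genes, and 25 of the 37 were in the longest of 5 equal groups of tested genes. The 39 higher genes had a median of 4258 bases over the 29 with a length.

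The departure from prediction followed transcript length over all genes tested. From the shortest to the longest of the 5 groups, the median of observed minus predicted difference was 0.25, 0.10, -0.02, -0.10 and -0.20 log2 units. Across 10296 genes Spearman's rho with length was -0.53, a description over genes that share libraries. It was 0.18 with GC content. The departures of single mixtures followed both, with rho of -0.39 for length and 0.45 for GC content in mixture 1, and -0.61 and 0.36 in mixture 2. Taken separately, mixture 2 departed from its own prediction by 0.35 in the shortest group and -0.29 in the longest, and mixture 1 by 0.09 and -0.08. Mixture 5 had 0.25 and -0.22, while mixture 3 had the opposite order, -0.04 and 0.10. These departures all share the same pure libraries.

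**Figure D5:**
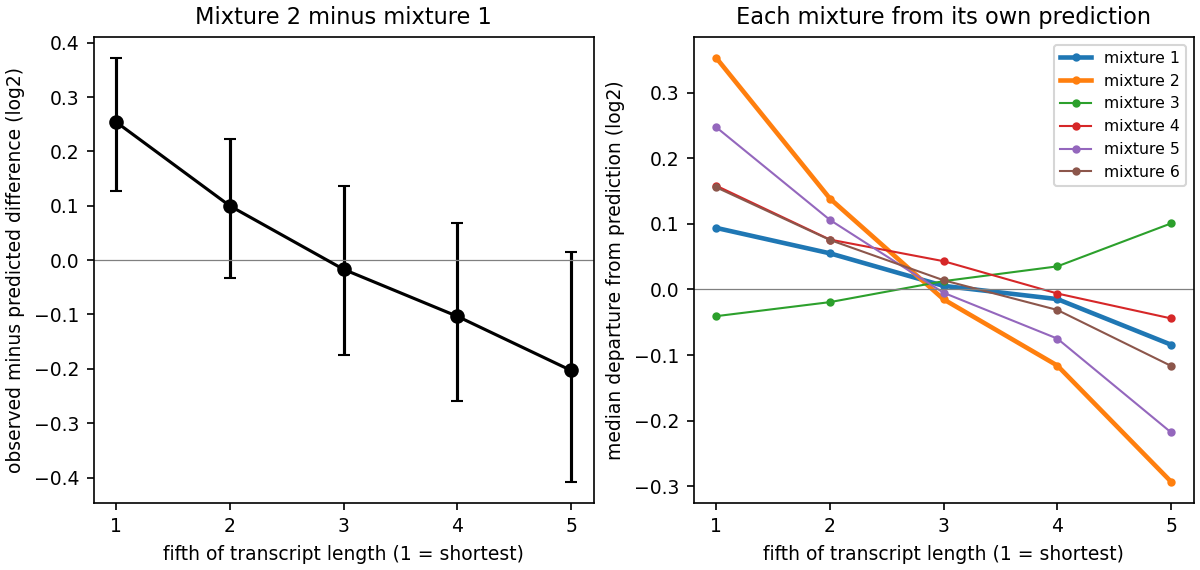
The left panel gives the median and the 25th to 75th percentile range of observed minus predicted difference (log2) in 5 equal groups of tested genes by transcript length, from 0.25 in the shortest group to -0.20 in the longest. The right panel gives the median departure of each of the 6 mixtures from its own prediction, which is steepest in mixture 2.

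The same order appeared within the genes led by a single line. Divided into 3 equal groups by length, genes led by HL60 had median ratios of 1.94, 1.62 and 1.5 from short to long, and genes led by SUDHL4 had 0.384, 0.362 and 0.338. Genes led by K562 had 1.02, 0.890 and 0.750, and genes led by THP1 had 1.05, 0.857 and 0.719. The largest falls among SUDHL4 genes were in long genes as well. TTN, the giant muscle protein gene with a transcript of 109224 bases, had 18.1 and 2.75 normalised CPM, and SYNE2, which encodes a nuclear envelope spectrin repeat protein, had 20.2 and 3.39. MAP2, of 9711 bases, was reduced 8.23-fold, from 9.61 to 1.17. Their ratios were 0.152, 0.168 and 0.122, below the ratio of 0.288 between the SUDHL4 coefficients.

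The lists of ribosomal protein and respiratory chain genes had positive differences without reaching the call. All 40 cytosolic ribosomal protein genes had a positive difference, between 0.07 and 0.58 log2 units, with a median of 0.35 against a predicted 0.01. Scaling to total reads, which shifts the median of all tested genes to -0.10, gave this list a median of 0.26, and its lowest member then had a negative difference. RPL4 had 5369 and 6282 normalised CPM. Of 23 nuclear-encoded respiratory chain genes, 22 had a positive difference, with a median of 0.26 against a predicted 0.03, or 0.17 with total-read scaling. A positive difference was held by 5133 of all 10403 genes tested. The median longest transcript was 1985 bases in the ribosomal protein list and 2064 in the respiratory chain list. Genes of the shortest of the 5 length groups, up to 2080 bases, had a median difference of 0.26. The part of length in these list medians was not tested. The median over 29 housekeeping genes was 0.20, or 0.11 with total-read scaling, and none of them was called. The 20 mitosis genes had a median of -0.20 and the 20 S phase genes 0.09, or -0.0028 with total-read scaling, again with none called. An adjustment for transcript length, in 10 equal groups, was an alternative chosen after seeing the data. The median of observed minus predicted difference in each group was subtracted from the differences of its genes. With it 59 genes were higher and 283 lower, and 51 departed from the fitted shares, 36 of them higher and 15 lower. The subtraction centres each group on the prediction, so these counts off the fitted shares are not independent of it. Genes without an annotated length were left out of these adjusted counts. Of the genes called without the adjustment, 61 of 74 higher and 337 of 341 lower genes had a length. Of these, 44 higher and 264 lower genes kept their call. The number of lower genes off the fitted shares went from 29, counted with or without a length, to 15.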

How the data were processed

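RNA of 10 libraries was analysed, and mixtures 1 and 2 were compared. Per the submitters' processing notes, HISAT2, featureCounts and Cell Ranger ARC 2.0.0 were named with genome build hg19, while annotation and settings are not given in the sources used here. Expression came as 1 table, deposited by the authors in signal units, of 20591 genes. The signal is CPM rescaled between libraries, with column sums that differ. Each value above 0 was a whole number of reads plus 0.5 times a constant step, and 100% of them came out whole within 0.01. These recovered reads gave the depth and the exact 95% counting intervals. They were not put through a count test, since every group is 1 library. The design had assumed plain CPM. A count of 0 allows up to 3 reads, 0.0955 normalised CPM in mixture 1 and 0.139 in mixture 2.

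Differences used a pseudocount of 1. Genes without a symbol in the table were named by Ensembl ID from the gene name table where it has one. Longest transcript lengths and GC contents came from GENCODE 29 by Ensembl ID, for 99.0% of tested genes. Shares were fitted by non-negative least squares (scipy 1.17.1) on 100 signature genes per line, each gene divided by its highest pure value. The composition method was tested on simulated data, drawn with counting error from weighted sums of the pure profiles. The simulation held no effect of transcript length or GC content, so it does not bear on departures that follow them.

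The members and the 27 gene lists, holding 482 distinct measured genes, were chosen with earlier results of these data known. Named genes are the 8 largest rises and falls, up to 4 led genes per line and direction at 20 or more, up to 12 outside the range and up to 12 off the fitted shares, up to 4 changed members per list, the markers, and those nearest the thresholds. Other genes were chosen after their values were seen, and the text says so for only some of them. Not marked there are VPREB3, MZB1, CD74, BMP8B, PCDHGC3, MTND2P28, MTCO1P12, MTATP6P1 and the genes detected in HL60 alone except CLC, EPX and IGLL1. Members of the lists are also named as examples. Alternatives covered the scaling, pseudocount, level filter, fold, signature size and margins. 1 item is not reported here.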

Additional observations from a re-analysis of the deposited data

How the results depend on the processing

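Of the values recomputed under other settings, 39 stayed close to those reported and 59 moved. These are counts and shares, which have no direction. Among the list medians, those of the erythroid, heat shock, histone and NF-kappaB lists changed sign under all 3 other scalings. That of the glycolysis and hypoxia list changed sign under total-read and housekeeping scaling, and that of the S phase list under total-read scaling. With total-read scaling HL60 was highest for 49.0% of the higher genes, and the shares of HL60, K562, SUDHL4 and THP1 were 28.7%, 21.4%, 21.5% and 28.3% in mixture 1 and 52.7%, 17.9%, 6.19% and 23.2% in mixture 2. With housekeeping scaling these values were 45.5%, then 30.7%, 22.7%, 21% and 25.7%, and 55.1%, 18.5%, 5.81% and 20.6%. Both scalings gave more lower genes, 424 and 414, and fewer higher ones, 51 and 55. With 50 signature genes per line the shares of HL60, K562 and SUDHL4 were 25.8%, 22.7% and 22.2% in mixture 1 and 48.0%, 20.4% and 6.86% in mixture 2. With all genes at 5 or more in a pure line, the 4 shares were 28.5%, 20.2%, 20.9% and 30.4%, and 54.1%, 17.4%, 3.87% and 24.6%. Least squares on unscaled values gave 26.9%, 22.3%, 21.3% and 29.6%, and 56.1%, 15.5%, 5.11% and 23.3%. The cause of these shifts was not tested.

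A level filter of 20 or more left 39 higher and 185 lower genes, 29 outside the range and 30 off the fitted shares, fewer because fewer genes were tested. A filter of 1 or more, and no filter, both left 103 off the fitted shares. A call at 1.5-fold gave 483 higher and 1099 lower genes and 151 outside the range. A call at 4-fold gave 5, 14 and 4, with 8 off the fitted shares. A range margin of 0 gave 94 genes outside the range and a margin of 1 gave 32. A required departure of 1.5-fold gave 144 genes off the fitted shares, and of 4-fold 7. Among genes with a lead of at least 1 log2 unit, 82.8% of the higher were highest in HL60 and 93.2% of the lower in SUDHL4.

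With the composition taken from genes of 1 line alone, an alternative chosen after seeing the data, a rise of at least 1 was predicted for 36 genes, of which 12 were called higher, and 72 genes were off the composition, 51 of them among the 67 reported. No replicate could be left out and no paired analysis was possible because each group holds 1 library. Low genes are the least precise, since 1 read is 0.0409 normalised CPM in mixture 1 and 0.0594 in mixture 2.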
